A study of Caenorhabditis elegans with 7 samples.

Results

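The genes described here are the regulator hlh-30 and 9 genes of the autophagy machinery, lgg-1, lgg-2, bec-1, unc-51, epg-5, sqst-1, atg-2, atg-9 and atg-18. They were chosen by gene name, and all 10 were found among the 46778 genes of the deposited table. RNAseq was performed on whole L4 larvae of C. elegans N2, the usual wild-type strain in laboratories. The deposited data hold 4 libraries of WT Late animals and 3 libraries of WT animals. The paper's figure legend gives N = 3 for this RNAseq, and all 4 WT Late libraries were used here. WT Late animals came from at least 50 successive generations propagated from progeny laid on day 3 of adulthood, and WT animals were not selected. Both groups were grown from synchronized L1 larvae on OP50 bacteria with streptomycin, and their labels name no transgene or mutation. By genome sequencing the paper found variants in coding regions of WT Late animals, whose part in these values was not tested. The labels number biological replicates, and no source used here says that the WT Late replicates descend from independently selected lines, so the p-values cover the spread between these libraries alone.

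Autophagy carries cytoplasmic cargo to lysosomes inside double-membrane vesicles. A kinase complex around UNC-51 starts the process, a lipid kinase complex that holds BEC-1 marks the site, ATG-2, ATG-9 and ATG-18 supply and shape the growing membrane, and the ubiquitin-like proteins LGG-1 and LGG-2 are attached to it. SQST-1 links ubiquitinated cargo to this membrane, and EPG-5 tethers the closed vesicle to late endosomes and lysosomes. HLH-30, the worm counterpart of mammalian TFEB, is a helix-loop-helix factor known to activate autophagy and lysosome genes on fasting, and it acts against the repressor MXL-3 on lysosomal lipase genes. Autophagy flux depends largely on protein modification and was not measured here, since the values are transcript levels.

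The deposited values were FPKM, reads per kilobase of gene length with a scale set for each library. They were put on a common scale with 1 median-of-ratios factor per library, giving what is called rescaled FPKM. The deposited scale did not follow the reads on genes alone. For lgg-1, WT Late replicate 3 had 12115 of 17647347 recovered reads, and replicate 4 had 1571 of 18103387. Its rescaled FPKM there was 394 and 214, with factors of 1.38 and 0.848. No source used here says how the deposited scale was set. The recovered reads on genes were between 17553893 and 20961698 per WT Late library and between 19484976 and 20423033 per WT library. Genes with at least 1 read numbered between 11069 (replicate 2) and 18490 (replicate 3) in WT Late libraries and between 15723 and 16297 in WT libraries. WT Late replicate 3 stood apart from its group, with Spearman correlations across genes of 0.78 to 0.798 with the other WT Late libraries. With the WT libraries its correlations were 0.835 to 0.875. Those of WT Late replicate 2 with the WT libraries were lower, at 0.806 to 0.833. Markers of intestine, germline, body wall muscle, epidermis, neurons and sperm were present, as whole animals should show. No marker was at 0 reads in every library. The sperm genes spe-9, spe-11 and spe-38 and the neuron gene unc-104 had 0 reads in WT Late replicate 2, and spe-38 also in replicate 1. Reads on spe-11 numbered 2, 0, 1329 and 22 in WT Late replicates 1 to 4, against 140, 289 and 197 in WT replicates 1 to 3. Of 28 markers tested, dpy-7, an epidermal collagen gene, was the one called. All 5 germline markers had log2 fold changes below 0, and their summed rescaled FPKM was between 32.9 and 91.4 in WT Late libraries and between 66.5 and 161 in WT libraries. The 4 sperm markers tested were below 0 as well, and the sum over the sperm markers was between 169 and 991 in WT Late libraries and between 349 and 727 in WT libraries. These sums came mostly from msp-142 and msp-3. Of 5 body wall muscle markers, 4 were below 0 too. Over all genes tested 7707 of 13194 were below 0, and longer genes lay lower, as given below. The germline markers were 1975 to 4326 bases long. In whole animals, fewer cells of a type and less RNA per cell cannot be told apart. The part of tissue composition, or of a difference in stage among L4 animals, in the results was not tested.

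None of the 10 genes was called between WT Late and WT animals. Rescaled FPKM plus 0.5, the pseudocount, was put on the log2 scale and compared with limma over 13194 genes, and a gene was called at a Benjamini-Hochberg adjusted p under 0.05. With limma, 0 of the 10 genes passed, while 0.849% of all genes tested did. Also with limma voom on the recovered reads 0 of the 10 passed. At an unadjusted p under 0.05 there were 2 of the 10, bec-1 with the higher level in WT Late animals and atg-2 with the lower one, and 8.89% of all genes tested had such a p. The same 2 genes were those whose libraries did not overlap between groups. Over all genes tested, every WT Late library lay above every WT library for 4.67% and below for 5.09%. The share of the 10 genes is thus 1 of 10 in each direction, and 10 genes are too few to set that share apart from the background. The median log2 fold change was -0.22 over the 10 genes and -0.13 over all genes tested. All 10 genes reached the minimum FPKM of 0.5 in at least 3 WT Late libraries.

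**Figure D1:**
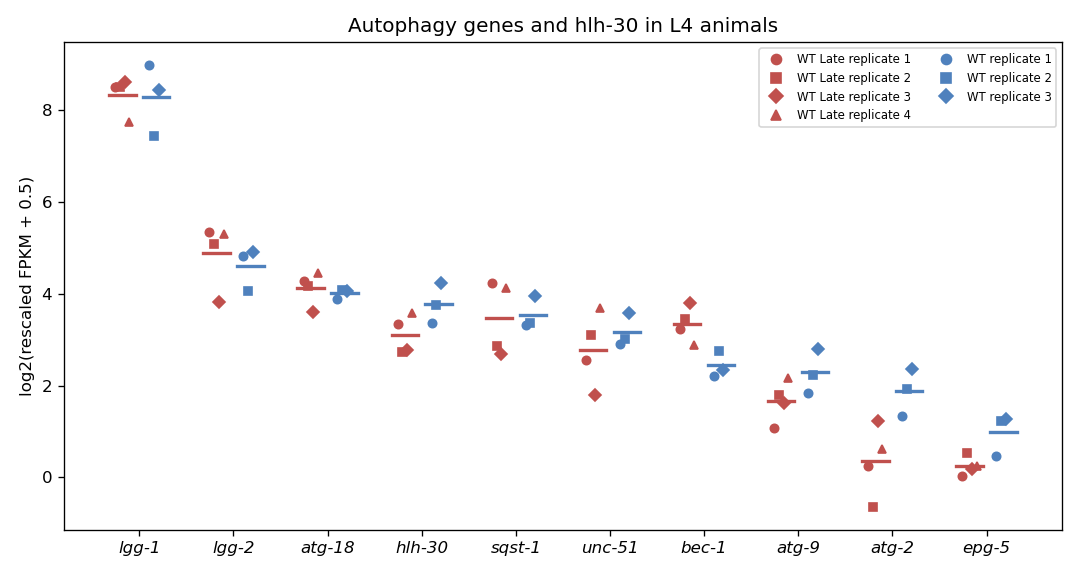
Levels of the 10 genes in each library, as log2 of rescaled FPKM plus 0.5, with WT Late on the left and WT on the right of each gene and bars at the group means. The groups separate for bec-1, higher in WT Late, and for atg-2, lower in WT Late, and lgg-1 lies far above the other genes.

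The gene hlh-30 (WBGene00020930) lies on chromosome IV from 4014799 to 4028127 on the minus strand, and its longest annotated transcript has 9 exons. Its rescaled FPKM was 9.65, 6.11, 6.38 and 11.5 in WT Late replicates 1 to 4, against 9.87, 12.96 and 18.3 in WT replicates 1 to 3. All 4 WT Late libraries were below the WT mean, but replicate 4 exceeded WT replicate 1, so the groups overlapped. The mean was 8.41 ± 2.61 (SD, n = 4) in WT Late and 13.7 ± 4.28 (SD, n = 3) in WT animals. The log2 fold change was -0.68 with a 95% interval of -1.51 to 0.15 (adjusted p = 0.655 from limma). The two-sided exact permutation test gave p = 0.114, and 4 against 3 libraries cannot give a p below 0.0286. Noncoding RNA genes that overlap hlh-30, W02C12.4 and F35F11.4, had 0 FPKM in all libraries.

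Of the genes that start the vesicle, bec-1, the Beclin 1 homologue, lay higher in every WT Late library than in any WT library without passing the adjusted test, and the groups of unc-51 overlapped. The gene bec-1 (WBGene00000247, chromosome IV from 5661141 to 5664425, minus strand, 7 exons) had 8.89, 10.5, 13.5 and 6.93 rescaled FPKM in WT Late replicates 1 to 4, against 4.14, 6.27 and 4.60 in WT replicates 1 to 3. The lowest WT Late library was above the highest WT library, by 6.93 to 6.27. The mean was 9.95 ± 2.76 (SD, n = 4) in WT Late and 5.01 ± 1.12 (SD, n = 3) in WT animals. The fitted log2 fold change was 0.91, a 1.87-fold difference, with a 95% interval of 0.089 to 1.72, an unadjusted p of 0.0326 and an adjusted p of 0.478 from limma. The two-sided exact permutation test gave p = 0.0571. These levels rest on 96 to 781 reads in WT Late libraries and on 100 to 195 reads in WT libraries. Under the 18 other settings the log2 fold change of bec-1 stayed between 0.75 and 1.06, and its lowest adjusted p from limma was 0.128. A noncoding RNA gene on the other strand within bec-1, T19E7.24, had at most 0.516 rescaled FPKM.

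The kinase gene unc-51 (WBGene00006786, chromosome V from 19995986 to 20004485, minus strand, 9 exons) had 5.37, 8.10, 2.99 and 12.3 rescaled FPKM in WT Late replicates 1 to 4, against 6.97, 7.64 and 11.4 in WT replicates 1 to 3. Its WT Late libraries spanned the whole WT range, with replicate 3 lowest and replicate 4 highest of all 7 libraries. Its log2 fold change was -0.38 with a 95% interval of -1.40 to 0.64 (adjusted p = 0.854 from limma).

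Among the membrane genes, atg-2, which encodes a lipid transfer protein, showed the lowest log2 fold change of the 10 genes. The gene (WBGene00019748, chromosome X, 6809104 to 6817266, plus strand) has 15 exons. It had 0.687, 0.136, 1.84 and 1.04 rescaled FPKM in WT Late replicates 1 to 4, against 2.03, 3.30 and 4.62 in WT replicates 1 to 3. The highest WT Late value, in replicate 3, was just below the lowest WT value. The log2 fold change was -1.51 with a 95% interval of -2.69 to -0.34, an unadjusted p of 0.016 and an adjusted p of 0.371 from limma. The two-sided exact permutation test gave p = 0.0571. Reads on atg-2 numbered 96, 16, 595 and 80 in WT Late replicates 1 to 4, against 273, 571 and 784 in WT replicates 1 to 3. Leaving out WT Late replicate 3 gave -1.78 (adjusted p = 0.0568 from limma). With estimated library weights, which gave WT Late replicate 3 a weight of 0.1945, it was -1.65 and atg-2 was called (adjusted p = 0.0263 from limma). In that setting 1058 of the 13194 genes tested were called.

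The other membrane genes were not called. The gene atg-9 (WBGene00020706, chromosome V from 349374 to 359016, plus strand, 11 exons), which encodes the transmembrane scramblase of the pathway, had 1.62, 2.95, 2.57 and 3.98 rescaled FPKM in WT Late replicates 1 to 4, against 3.08, 4.18 and 6.44 in WT replicates 1 to 3. All WT Late libraries were below the WT mean, but replicate 4 exceeded WT replicate 1. For atg-9 the log2 fold change was -0.62 with a 95% interval of -1.60 to 0.35 (adjusted p = 0.745 from limma). The gene atg-18 (WBGene00018294, chromosome V from 8629223 to 8631325, minus strand, 7 exons), a WIPI homologue that binds phosphoinositides, had 18.8, 17.4, 11.6 and 21.5 rescaled FPKM in WT Late replicates 1 to 4, against 14.3, 16.5 and 16.21 in WT replicates 1 to 3. WT Late replicate 3 was the lowest of the 7 libraries and the other WT Late libraries were above all WT libraries. Its log2 fold change was 0.11 with a 95% interval of -0.62 to 0.83 (adjusted p = 0.948 from limma) and -0.018 after quantile normalization.

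The Atg8 homologues differed from each other in level far more than either differed between groups. LGG-1 is the GABARAP-like and LGG-2 the LC3-like protein. The gene lgg-1 (WBGene00002980, chromosome II from 6346960 to 6347719, minus strand, 2 exons) had 362, 360, 394 and 214 rescaled FPKM in WT Late replicates 1 to 4, against 510, 172 and 345 in WT replicates 1 to 3. The lowest and the highest value were both in WT libraries, and the log2 fold change was 0.054 with a 95% interval of -1.02 to 1.13 (adjusted p = 0.983 from limma). The gene lgg-2 (WBGene00002981, chromosome IV from 10934186 to 10935914, minus strand, 3 exons) had 40.3, 33.5, 13.6 and 38.8 rescaled FPKM in WT Late replicates 1 to 4, against 28.0, 16.3 and 29.8 in WT replicates 1 to 3. WT Late replicate 3 was below all WT libraries and the other WT Late libraries were above them. For lgg-2 the log2 fold change was 0.28 with a 95% interval of -0.66 to 1.22 (adjusted p = 0.883 from limma), and it was 0.64 without WT Late replicate 3. On the opposite strand lsm-7, which shares 15 bases with lgg-2, was at 67.8 to 133 rescaled FPKM in WT Late libraries and at 50.3 to 166 in WT libraries, and no source used here says whether the counting used strand.

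Within a library, the ratio of lgg-2 to lgg-1 was 0.111, 0.0929, 0.0344 and 0.181 in WT Late replicates 1 to 4, against 0.0549, 0.0945 and 0.0862 in WT replicates 1 to 3. The lowest and the highest ratio were both in WT Late libraries. On the log2 scale the ratio differed by 0.23 between WT Late and WT (p = 0.743, exact permutation test, two-sided). Without WT Late replicate 3 the difference was 0.68 and without WT Late replicate 4 it was -0.11, so single libraries set its size, and after quantile normalization it was 0.036.

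The cargo receptor gene sqst-1, the homologue of p62, had no common direction among WT Late libraries. It lies on chromosome IV from 12034252 to 12037051 on the plus strand (WBGene00011737, 3 exons). Its rescaled FPKM was 18.5, 6.81, 5.91 and 17 in WT Late replicates 1 to 4, against 9.50, 9.82 and 14.9 in WT replicates 1 to 3. WT Late replicates 1 and 4 were above all WT libraries, and replicates 2 and 3 were below all of them. The SD was 6.61 (n = 4) in WT Late and 3.02 (n = 3) in WT animals. For sqst-1 the log2 fold change was -0.063 with a 95% interval of -1.06 to 0.93 (adjusted p = 0.979 from limma).

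The tethering gene epg-5 (WBGene00016968, chromosome II from 6603441 to 6609356, minus strand, 23 exons) had the lowest level of the 10 genes in both groups. It had 0.521, 0.936, 0.637 and 0.683 rescaled FPKM in WT Late replicates 1 to 4, against 0.887, 1.85 and 1.93 in WT replicates 1 to 3. All WT Late libraries were below the WT mean, and the groups overlapped only between WT Late replicate 2 and WT replicate 1. For epg-5 the log2 fold change was -0.75 with a 95% interval of -1.74 to 0.24 (adjusted p = 0.678 from limma, p = 0.0571 in the two-sided exact permutation test). These values rest on 34 to 133 reads in WT Late libraries and 77 to 211 reads in WT libraries. Its end overlaps vps-33.2 on the opposite strand by 9 bases.

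**Figure D2:**
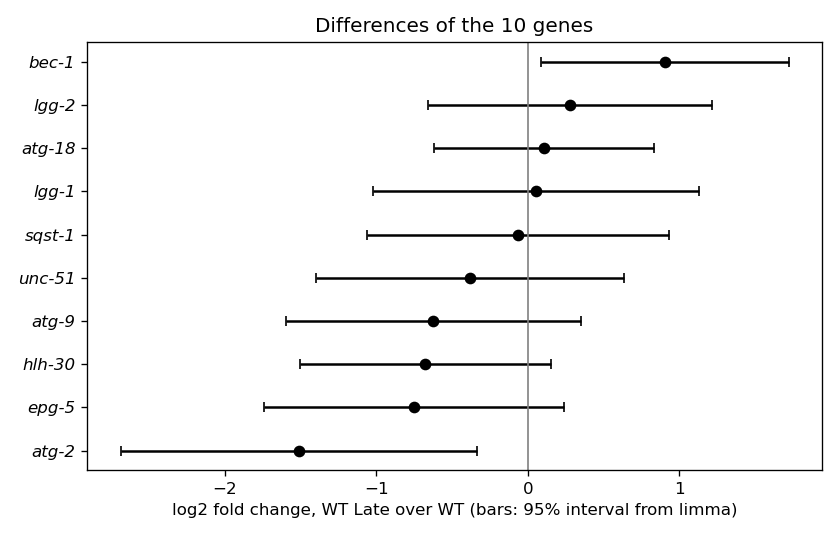
Log2 fold change of WT Late over WT for each of the 10 genes, on the log2 scale of rescaled FPKM plus 0.5, with 95% intervals from limma. The intervals of bec-1, 0.089 to 1.72, and atg-2, -2.69 to -0.34, leave out 0, and the other 8 include it. The point of atg-18 was -0.018 after quantile normalization.

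By level per gene length, lgg-1 ranked first in both groups, with 332 ± 80.4 rescaled FPKM (SD, n = 4) in WT Late and 342 ± 169 (SD, n = 3) in WT animals. Its range was apart from that of the next gene, lgg-2, which averaged 31.5 ± 12.3 (SD, n = 4) in WT Late and 24.7 ± 7.32 (SD, n = 3) in WT animals. In WT Late animals atg-18, sqst-1, bec-1, hlh-30, unc-51, atg-9, atg-2 and epg-5 followed in this order, and each gene's range overlapped that of its neighbour from lgg-2 on. In WT animals the order was atg-18, hlh-30, sqst-1, unc-51, bec-1, atg-9, atg-2 and epg-5. Here neighbours were apart between unc-51 and bec-1 and between atg-2 and epg-5, and overlapped elsewhere after lgg-2. The place of bec-1 in the order was 5 in WT Late and 7 in WT animals, which was not tested. By WT level, lgg-1 was above 97.0% of all genes tested and epg-5 above 20.7%, so the levels of the 10 genes were spread widely.

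The libraries also differed in how these genes stood together. Relative to the WT mean, 8 of the 10 genes were below it in WT Late replicate 3, with a median deviation of -0.73 on the log2 scale, and 8 of 10 were below it in WT replicate 1, with a median deviation of -0.25. The median deviation was -0.12 in WT Late replicate 1, -0.27 in replicate 2 and 0.16 in replicate 4. In WT replicate 3, 9 of the 10 genes were above the mean of the 3 WT libraries, which includes that library. Without WT Late replicate 3 the log2 fold change was -0.57 for hlh-30, 0.75 for bec-1, -1.78 for atg-2 and -0.72 for epg-5, and 0 of the 10 genes were called.

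The log2 fold changes were above 0 for the 4 genes of up to 2000 bases, lgg-1, lgg-2, bec-1 and atg-18, and below 0 for the 6 longer genes. This split is not firm, since lgg-1, atg-18 and sqst-1 lay near 0 and turned under other settings. The value of lgg-1 was below 0 in 6 of 18 alternatives, among them voom at -0.02, and that of atg-18 was -0.018 after quantile normalization and -0.004 with the replicate number as a block. The value of sqst-1 was 0.34 with library weights, and its mean rescaled FPKM was 12.0 in WT Late and 11.4 in WT animals. Over all genes tested the median log2 fold change was -0.0032 for 4768 genes of up to 1000 bases, -0.03 for those of 1000 to 2000 bases, -0.32 for those of 2000 to 3000 bases, -0.54 for those of 3000 to 4000 bases and -0.86 for the 572 longer genes. In that longest class 27.6% of the genes had all WT Late libraries below all WT libraries, against 2.10% in the shortest class. The median deviation from the WT mean in the longest class was -1.21 in WT Late replicates 1 and 2, -0.32 in replicate 3 and -0.81 in replicate 4. The 10 genes had a median length of 2671 bases, against 1263 bases over all genes tested, so they are long genes as a set.

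Taking out the trend with length within each library, an alternative chosen after seeing the data, moved the long genes most. The log2 fold change of atg-2, the longest of the 10 with 7442 bases, was then -0.46 (adjusted p = 0.886 from limma), and 9.09% of the 572 genes of its length class had a lower value than its -1.51. For epg-5, with 4800 bases, it was 0.032, and for unc-51, with 2897 bases, it was 0.044. For hlh-30, with 3036 bases, it was -0.22, and for atg-9, with 2958 bases, it was -0.18. The value of bec-1, with 1335 bases, hardly moved and was 0.87 (unadjusted p = 0.0297, adjusted p = 0.549 from limma), and 94.4% of the 5389 genes of its class had a lower value than its 0.91. The cause of the trend with length was not tested.

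**Figure D3:**
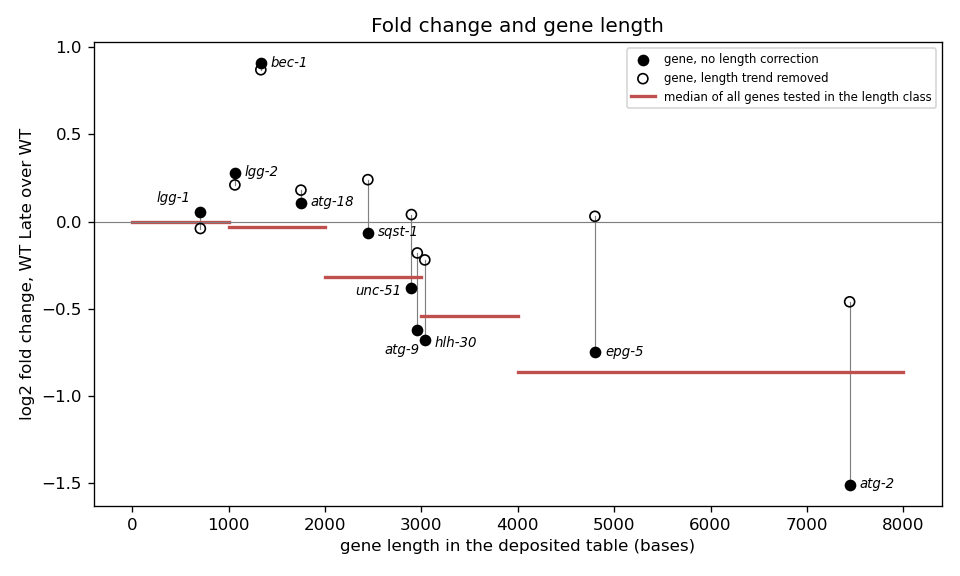
Log2 fold change of WT Late over WT against gene length in bases for the 10 genes, without a length correction (filled) and with the length trend removed (open), with red lines at the median of all genes tested in each length class (the last class also holds longer genes). The values of atg-2 move to -0.46 and of epg-5 to 0.032, while bec-1 stays at 0.87, and atg-18, above 0 in both, was at -0.018 after quantile normalization.

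The wider pathway was read from 71 genes in lists by step, of which 70 were tested and sepa-1, a cargo adaptor gene of embryos, had 0 reads in every library. With limma, 1 gene was called higher, mxl-3, and 1 lower, lipl-2, which is 2 of the 70, while 0.849% of all genes tested were called. Above 0 were 37 log2 fold changes and below 0 were 33, with a median of 0.035, against 5487 and 7707 with a median of -0.13 over all genes tested. After quantile normalization the median of all genes was -0.0083. Of the 60 tested genes besides the 10, 5 of 6 genes of up to 1000 bases had a value above 0 and 0 of 6 genes over 4000 bases did.

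By step, none of the genes from initiation to fusion was called by limma, and 3 of these 42 had an unadjusted p under 0.05, bec-1, atg-2 and dct-1, a share no larger than the 8.89% of all genes tested. The 4 genes of the initiation complex lay between unc-51 at -0.38 and atg-13 at 0.87 (adjusted p = 0.669 from limma), and those of the lipid kinase complex between vps-15 at -0.36 and bec-1 at 0.91. The 6 genes of membrane growth lay between atg-2 at -1.51 and epg-4 at 0.15. Of the 11 genes of Atg8 conjugation 9 were above 0, with a median of 0.28, from atg-10 at -0.73 to atg-3, the conjugating enzyme, at 0.53. The 7 tested cargo receptor and mitophagy genes lay between epg-2 at -0.34 and dct-1 at 1.00. The gene dct-1, the homologue of the mitophagy receptor BNIP3, had 5.08, 3.07, 2.33 and 3.80 rescaled FPKM in WT Late replicates 1 to 4, against 1.90, 1.01 and 1.62 in WT replicates 1 to 3. Its groups did not overlap, and its p from limma was 0.0439 unadjusted and 0.537 adjusted. The 10 genes of fusion with lysosomes lay between vps-11 at -0.99 and syx-17 at 0.32, and their median was 0.072.

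TOR signalling represses autophagy in fed animals. Genes listed under TOR and energy sensing were not called, except let-363 and rsks-1 with library weights (adjusted p = 0.0218 and 0.0145 from limma). With those weights 1058 of the 13194 genes tested were called. Of 8 genes 6 had values below 0, with a median of -0.43, and these 6 include the energy-sensing gene aak-2 at -0.085. Over all genes tested 7707 of 13194 had values below 0, with a median of -0.13. The kinase gene let-363, the worm TOR, had 0.642, 1.02, 2.43 and 1.29 rescaled FPKM in WT Late replicates 1 to 4, against 2.83, 3.79 and 4.45 in WT replicates 1 to 3. Its groups did not overlap, and its log2 fold change was -1.25 (unadjusted p = 0.0213, adjusted p = 0.409 from limma). The S6 kinase gene rsks-1 had 4.78, 9.02, 12.6 and 9.33 rescaled FPKM in WT Late replicates 1 to 4, against 14.5, 19.8 and 23.5 in WT replicates 1 to 3, and its log2 fold change was -1.11 (unadjusted p = 0.0145, adjusted p = 0.358 from limma). Both are long, with 8549 and 3050 bases, and with the length trend removed their values were -0.12 and -0.65. The genes daf-15 and flcn-1, at -0.90 and -0.62, are long as well, with 5827 and 3452 bases. Over all genes tested, the median was -0.86 in the length class of daf-15 and -0.54 in that of flcn-1. The Rag GTPase gene raga-1 had the highest value of the list, 0.53 (adjusted p = 0.676 from limma), and its groups did not overlap.

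The transcription factor gene that rose was mxl-3 (WBGene00003511, chromosome X from 13349639 to 13350804, minus strand, 4 exons). MXL-3 is a Max-like helix-loop-helix repressor that holds down lysosomal lipase genes in fed animals. Its rescaled FPKM was 68.8, 64.3, 29.9 and 62.7 in WT Late replicates 1 to 4, against 7.73, 10.8 and 6.88 in WT replicates 1 to 3. Every WT Late library was above every WT library. The mean was 56.4 ± 17.9 (SD, n = 4) in WT Late and 8.48 ± 2.07 (SD, n = 3) in WT animals. The fitted log2 fold change was 2.62, a 6.14-fold difference, with a 95% interval of 1.79 to 3.44 and an adjusted p of 0.00608 from limma (two-sided exact permutation test, p = 0.0286). Leaving out WT replicate 1 gave 2.57 (adjusted p = 0.0609 from limma), and leaving out WT replicate 3 gave 2.49 (adjusted p = 0.0578 from limma), so the call was lost in both. With the length trend removed it was 2.55 (adjusted p = 0.0127 from limma). The ratio of mxl-3 to hlh-30 within a library was 7.14, 10.5, 4.68 and 5.45 in WT Late replicates 1 to 4, against 0.784, 0.835 and 0.375 in WT replicates 1 to 3. This ratio was formed after the values were seen and was not tested. By rescaled FPKM, mxl-3 was above hlh-30 in each WT Late library and below it in each WT library. Among the epidermal markers dpy-7 was also higher in every WT Late library, with a log2 fold change of 2.96, while the other 3 had values below 0. The summed rescaled FPKM of these 4 markers was between 34.6 and 83.3 in WT Late libraries and between 23.1 and 27.6 in WT libraries. This rise came from dpy-7, at 21.4 to 62.4 in WT Late and 4.74 to 6.01 in WT libraries. The groups of elt-3, lin-26 and elt-1 overlapped. The part of these markers in the difference of mxl-3 was not tested.

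The lysosomal lipase genes on which HLH-30 and MXL-3 are known to act in opposition had values on both sides of 0, and of them lipl-2 passed the test. The gene lipl-2 had 1.47, 0, 1.76 and 2.05 rescaled FPKM in WT Late replicates 1 to 4, against 10.8, 11.7 and 26.3 in WT replicates 1 to 3, with a log2 fold change of -3.32 (adjusted p = 0.0228 from limma). Its call was lost in 7 of 18 other settings, among them the removal of WT replicate 1, 2 or 3 or of WT Late replicate 1, where the adjusted p from limma was 0.0671 to 0.214. The gene lipl-1 had 0.738, 0, 0.285 and 0.0703 rescaled FPKM in WT Late replicates 1 to 4, against 2.50, 1.66 and 2.79 in WT replicates 1 to 3 (log2 fold change -1.93, adjusted p = 0.132 from limma). It passed the filter because of the WT libraries, since of the WT Late libraries only replicate 1 reached the minimum FPKM. A difference was thus built into its being tested. Both lay lower in every WT Late library than in any WT library. The gene lipl-3 had 3.56, 5.38, 0.554 and 1.96 rescaled FPKM in WT Late replicates 1 to 4, against 0.0831, 0.162 and 0 in WT replicates 1 to 3. The gene lipl-4 had 4.86, 1.04, 1.63 and 1.35 rescaled FPKM in WT Late replicates 1 to 4, against 0, 0.1 and 0.0684 in WT replicates 1 to 3. These genes lay higher in every WT Late library, with log2 fold changes of 2.28 and 2.11 (adjusted p = 0.151 and 0.127 from limma). In WT libraries lipl-3 and lipl-4 had 0 to 5 reads, so the size of the difference depends on the pseudocount and was 3.76 and 3.69 at a pseudocount of 0.1. Both passed the filter through WT Late libraries alone, so a difference was built into their being tested. Without WT Late replicate 3 the adjusted p from limma was 0.0442 for lipl-1, 0.00958 for lipl-3 and 0.0455 for lipl-4, which the same limit of the filter touches. The gene lipl-5, named after its values were seen to complete the family, had a log2 fold change of -0.96 (adjusted p = 0.654 from limma) with overlapping groups.

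**Figure D4:**
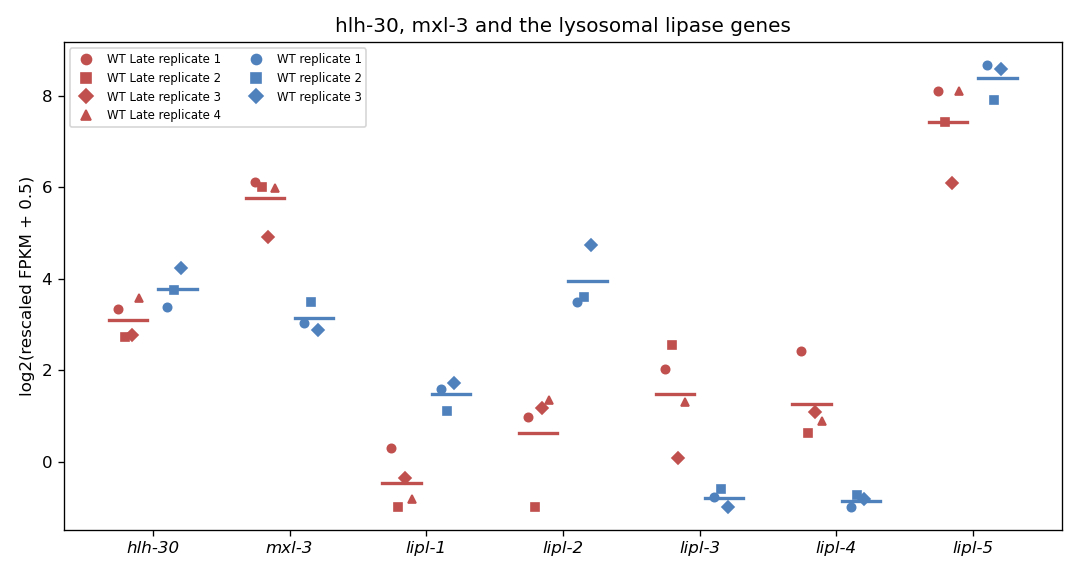
Levels of hlh-30, mxl-3 and the lipase genes lipl-1 to lipl-5 in each library, as log2 of rescaled FPKM plus 0.5, with WT Late on the left and WT on the right of each gene and bars at the group means. The groups of mxl-3, lipl-3 and lipl-4 separate with WT Late higher, those of lipl-1 and lipl-2 with WT Late lower, and those of hlh-30 and lipl-5 overlap.

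Of the other genes in the list of lysosomal proteins, none was called. Over its 14 genes the median log2 fold change was -0.13, against -0.13 over all genes tested, with 6 above 0 and 8 below. The values lay between lipl-2 at -3.32 and lipl-3 at 2.28. Of the 6 genes in the list of transcription factors, hlh-30 had the lowest value and mxl-3 the highest.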

How the data were processed

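RNA of whole L4 animals was sequenced and read counts were made by Novogene for the authors; the sources used here name no aligner, counter or genome build. The authors deposited FPKM for 46778 genes, 1 column per library. FPKM multiplied by gene length gave whole multiples of a fixed step per library for 100% of the values above 0 (tolerance 0.02). These multiples were taken as the recovered reads. Coordinates are as deposited; exon numbers come from the Ensembl release 115 annotation of WBcel235, where all 10 genes overlap their place on the same strand and 3 have identical coordinates.

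FPKM was divided by median-of-ratios factors (0.848 to 1.38), and log2 of this plus 0.5 entered limma (version 3.58.1, R 4.3.3) with a variance trend, over the 13194 genes that reached 0.5 FPKM in 3 or more libraries. Adding 0.5 understates the fold changes of low genes. P-values were adjusted by Benjamini-Hochberg over all of them. The alternatives left out each library in turn, used voom on recovered reads, weighted the libraries, blocked on replicate number, dropped the variance trend or the filter, raised the filter to 5 FPKM, set the pseudocount to 0.1 or 1, normalized by quantiles, kept the deposited scale, or removed the length trend (lowess, span 0.3). Besides the 10 genes, the text names list genes that were called, those with an unadjusted p under 0.05 and separate groups, and the extremes of each list. The genes and lists were chosen with earlier results of these data known. Copies made by PCR were not separated from original molecules, and sequences were not used here. The genes allo-1, fndc-1 and atg-11 (epg-7 in the table) were matched by identifier.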

Additional observations from a re-analysis of the deposited data

Results flagged for a closer look

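Of 29 sets of WT Late values checked, which are those of the named genes and of the lgg-2 to lgg-1 ratio, 2 had 1 library well away from the remaining 3. About 1 in 20 such sets would be picked out by chance. The rescaled FPKM of mxl-3 was 29.9 in WT Late replicate 3, against 62.7 to 68.8 in the other WT Late libraries, and was still above the 6.88 to 10.8 of the WT libraries. The rescaled FPKM of lipl-4 was 4.86 in WT Late replicate 1, against 1.04 to 1.63 in the other WT Late libraries and 0 to 0.1 in the WT libraries. No set of the 10 genes held such a library.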

How the results depend on the processing

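With limma, none of the 10 genes was called in any alternative in which it was tested, except 1, atg-2, with library weights. At the filter of 5 FPKM epg-5, atg-2 and atg-9 were not tested. Of the pathway genes, 2 were called, against 8 with library weights and 1 with a pseudocount of 0.1, no filter or voom on recovered reads, and 0 to 5 with a library left out. Over all genes 112 were called, against 1058 with library weights, 51 with no filter and 28 (without WT replicate 1) to 643 (without WT Late replicate 3) with a library left out. Without WT replicate 3 it was 40 and without WT Late replicate 1 it was 55. Library weights gave 47.3% of calls higher, the replicate block 67.7% and removal of WT Late replicate 3 56.1%, against 78.6%.

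The direction of some values turned. The log2 fold change of atg-18 was -0.018 after quantile normalization and -0.004 with the replicate block, and -0.005 to 0.28 with a library left out. That of lgg-1 was -0.095 with library weights, -0.02 with voom and -0.04 with the length trend removed, and -0.381 to 0.406 with a library left out. That of sqst-1 was 0.336 with library weights and 0.243 with the length trend removed, and -0.321 to 0.202 with a library left out. With the length trend removed unc-51 was at 0.044, epg-5 at 0.032 and vps-15 at 0.345. With library weights syx-17 was at -0.065, and epg-4 was at -0.055 to 0.416 with a library left out. The difference in the log2 ratio of lgg-2 to lgg-1 was -0.109 to 0.679 with a library left out. Of 490 alternative values of named genes, 452 kept direction and side of the threshold, 20 turned, 9 gained a call and 9 lost one.

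The labels do not say whether equal replicate numbers mark paired libraries. Correlations of deviations were 0.237, -0.0917 and -0.185 for numbers 1 to 3, and between -0.326 and 0.314 for unequal numbers. So few values cannot settle whether libraries were paired. With the replicate block 99 genes were called over all, 0 of the 10 and 2 of the pathway genes. Low read numbers limit the values of atg-2 and epg-5 in WT Late replicates 1, 2 and 4. There atg-2 had 16 to 96 reads and epg-5 had 34 to 71 reads.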
